A study of Arabidopsis thaliana with 4 samples.

Results

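BHLH101 (AT5G04150) encodes a basic helix-loop-helix (bHLH) transcription factor of the iron deficiency response of Arabidopsis thaliana. It was chosen by its signal, which was lower in silenced plant groups 2 and 3 than on the remaining array of the series, so that difference is a description here and carries no test. The choice also named 7 related loci: AT3G56970, AT3G56980 and AT2G41240, which encode the factors bHLH38, bHLH39 and BHLH100; AT5G01600, AT3G56090 and AT2G40300, which encode the iron storage proteins FER1, FER3 and FER4; and AT1G56430, which encodes the nicotianamine synthase NAS4. Of these 8 loci, 1, BHLH101, had a probe set listed to a single gene, out of 13286 genes with such a probe set. The other 7 were not analysed here, so nothing is said of the ferritins, of NAS4 or of the 3 closest relatives of BHLH101.

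The series measured total RNA on 1-colour Affymetrix arrays, with 1 array per plant group. Per the labels, 3 independent groups of plants carried an inverted repeat made from the coding sequence of Myosin XI-K, which silences that actin-based motor by RNA interference (RNAi), and a control group expressed the bacterial reporter GUS from a transgene. Every group therefore carried a transgene, and each sample mixed rosette leaves, cauline leaves and flowers in equal parts. The sources used here do not give plant age, the promoter of the inverted repeat or the number of plants in a sample. Control and RNAi group 1 values were identical in all 22810 rows, against 56 to 67 identical rows for every other pair. They were counted as 1 sample, called the shared array, and its true plant group cannot be told from the labels. A difference from the shared array therefore parts silenced plants from control plants only if that array is the control; otherwise it parts silenced groups from each other. Myosin XI-K had no probe set listed to a single gene, so its level is not reported here.

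Plants keep iron within narrow limits. When iron runs short, bHLH factors of subgroup Ib, to which BHLH101 belongs, are switched on in leaves and roots and help to activate genes of iron uptake. They are themselves activated by bHLH factors of subgroup IVc (ILR3, bHLH34, bHLH104 and bHLH115) and by bHLH121. POPEYE (PYE), another bHLH factor of the response, represses some iron genes, and ferritins hold iron that is in excess.

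BHLH101 was brightest on the shared array, with a signal of 239.8, stood in RNAi group 2 at 96.7 and was dimmest in RNAi group 3, at 36.4. Neither RNAi array was near the shared one. RNAi group 2 stood at 40.3% of the shared signal and RNAi group 3 at 15.2%, which is 2.48-fold and 6.59-fold lower. On the log2 scale the differences were -1.31 and -2.72, with a mean of -2.02 (SE 0.73 from limma's moderated fit, n = 2 against 1). With 1 array per plant group no spread within a group exists, so none of these levels can be called different from another beyond error. Probe sets whose mean log2 signal over the 3 arrays lay above the 30th percentile were kept for comparison across genes, a filter on dim signals that BHLH101 passed. RNA from fewer cells that express a gene and less RNA per cell cannot be told apart in these bulk samples.

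**Figure D1:**
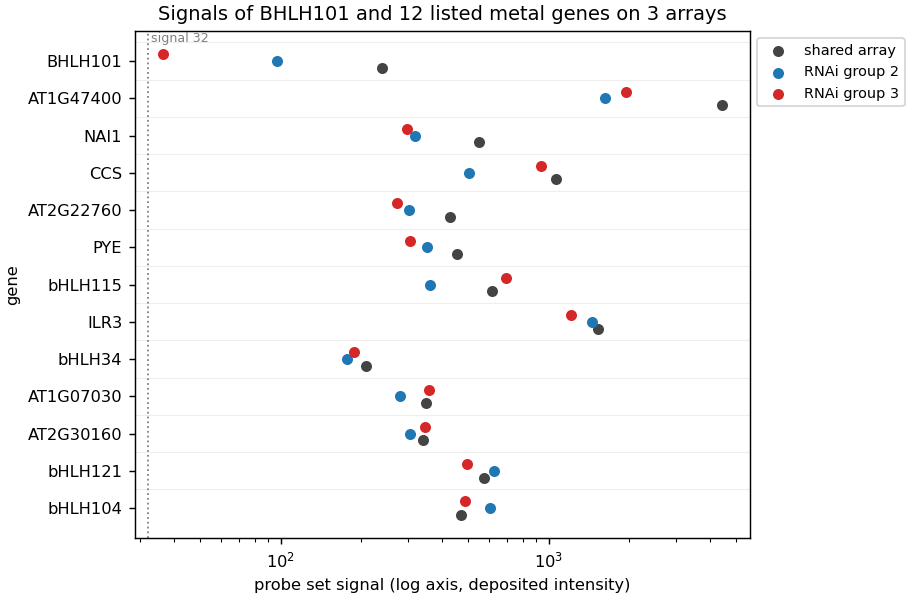
Probe set signal (log axis, deposited intensity) of BHLH101 and of 12 listed metal genes past the filter on dim signals, with 1 point for each of the 3 distinct arrays. BHLH101 spans 239.8 to 36.4 and ends close to the dotted line at a signal of 32; the AT1G47400 points of both RNAi groups lie together and well below the shared array.

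The RNAi groups also stood apart from each other. BHLH101 was 2.66-fold lower in RNAi group 3 than in RNAi group 2, a log2 difference of -1.41, a step about as wide as the -1.31 between RNAi group 2 and the shared array. At least 2-fold lower in RNAi group 3 than in RNAi group 2 were 9.53% of the 15922 probe sets past the filter. The signal of 36.4 in RNAi group 3 is near the dim end of that array, where 26.1% of the signals lay under 32. With signals under 32 set to 32 the mean log2 difference of BHLH101 stayed at -2.02, since none of its 3 signals lay under that level.

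Set among all probe sets past the filter, the mean log2 difference of BHLH101 from the shared array was the seventh lowest. The median over all 15922 was 0.04. Its rank from the lowest was 236 for RNAi group 2 alone and 15 for RNAi group 3 alone. BHLH101 was 1 of 58 probe sets at least 2-fold lower in both RNAi groups, 0.364% of those past the filter, against 1.27% at least 2-fold higher in both. Both comparisons use the same lone array. Only 3 of the 58, 0.0188% of all past the filter, were in addition at least 2-fold lower in RNAi group 3 than in RNAi group 2. They were BHLH101, AT1G72920 and an unnamed probe set with signals of 545.4, 251.5 and 91.5; this subset was formed after the values were seen.

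**Figure D2:**
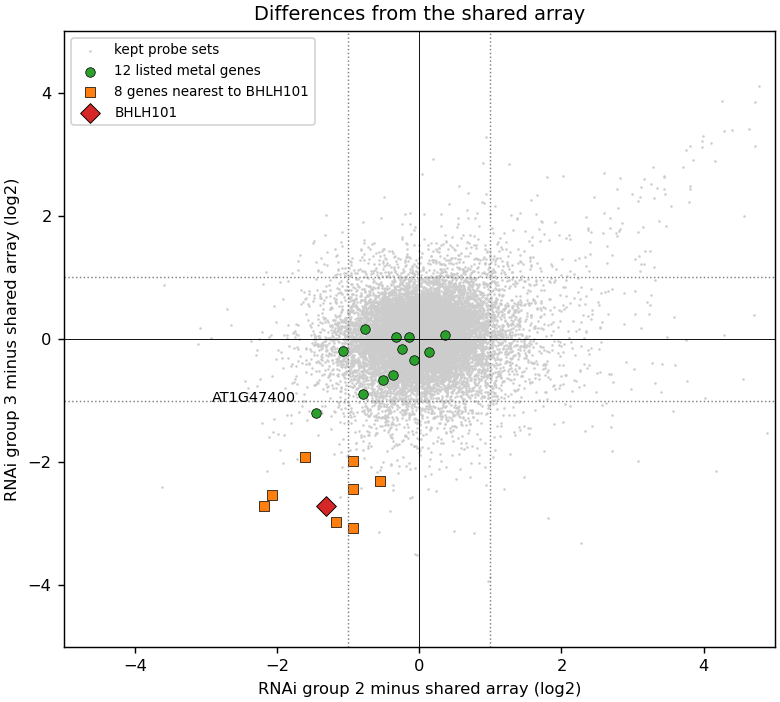
Log2 difference of RNAi group 2 (horizontal axis) and of RNAi group 3 (vertical axis) from the shared array for the probe sets past the filter, of which 29 lie outside the axes; dotted lines mark 2-fold. BHLH101, at -1.31 and -2.72, lies in the sparse lower left with the 8 genes nearest to it, and AT1G47400 is the only 1 of the 12 listed metal genes beyond 2-fold on both axes.

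The 5 bHLH activators of the subgroup Ib genes named above stayed closer to the shared array than BHLH101 did. BHLH101 was chosen for its lower signal in RNAi groups 2 and 3, so this order is a description. Signals are given from here on in the order shared array, RNAi group 2, RNAi group 3. ILR3 had signals of 1530.3, 1448.5 and 1208.6. bHLH104 had 470.2, 604.8 and 489.6, and bHLH34 had 209.2, 177.3 and 187.3. These 3 genes kept within 1.3-fold of the shared array in both RNAi groups. bHLH115 had 616.8, 360.9 and 692.6, so it was 1.71-fold lower in RNAi group 2 and 1.12-fold higher in RNAi group 3. bHLH121 had 573.6, 628.0 and 494.9 and likewise lay on either side of the shared array. Over the 5 activators the mean log2 difference ran from -0.30 to 0.21, with a median of -0.20; 2 were below the shared array in both RNAi groups, 1 was above it in both and 2 were mixed. Of all probe sets past the filter, 23.3% were below in both and 30.2% above in both. None of the 5 passed limma's test, with an adjusted p of 0.9999 for each, against 0% of all called lower and 0.0314% called higher.

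With the 5 activators, the list of iron regulators held 9 genes past the filter, of which 6 were below the shared array in both RNAi groups, 1 was above it in both and 2 were mixed, against 23.3% below and 30.2% above among all probe sets past the filter. None of the 9 passed limma's test, against 0% of all probe sets called lower and 0.0314% called higher. With no probe set called lower at all, this does not set the 9 apart. The genes besides the 5 bHLH activators were PYE, NAI1, AT2G22760 and AT1G47400. Each had a smaller mean difference than BHLH101, which was chosen for its own. PYE had signals of 455.6, 351.8 and 304.6. Its mean log2 difference was -0.48 (SE 0.50, limma adjusted p = 0.9999). NAI1, a bHLH factor known for its role in forming endoplasmic reticulum bodies, had 550.0, 317.1 and 297.1. This is 1.73-fold and 1.85-fold lower, a mean log2 difference of -0.84 (SE 0.50, limma adjusted p = 0.9999), with the RNAi arrays close to each other and apart from the shared one. AT2G22760, the locus next to NAI1 on chromosome 2, had 430.2, 301.6 and 272.4, a mean log2 difference of -0.59 (SE 0.50). AT2G22750, the next locus in the same row, was dim on all arrays, at 7.0, 1.2 and 24.8, and lay on either side of the shared array. NAI1 and AT2G22760 thus differed from the shared array by similar amounts in both RNAi groups, whereas BHLH101 lay further from it in RNAi group 3.

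After BHLH101, AT1G47400 had the largest difference among the listed metal genes with a clear signal. Its locus was in the list of iron regulators under the name IMA1, which the annotation used here does not give. It had signals of 4449.4, 1626.6 and 1941.7. Both RNAi arrays were therefore low, at 2.74-fold and 2.29-fold below the shared array, and near each other. The mean log2 difference was -1.32 (SE 0.51), with an unadjusted p of 0.0294 and an adjusted p of 0.9999 in limma, so it did not pass. Unlike BHLH101, which stepped down from RNAi group 2 to RNAi group 3 by 1.41 on the log2 scale, AT1G47400 was 0.26 higher in RNAi group 3 than in RNAi group 2; this contrast between the genes was not tested.

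Genes of iron uptake, storage and the related metals were sparsely covered. AT3G13610, also named F6'H1, which encodes an enzyme that makes coumarins with which roots mobilise iron, had signals of 54.9, 14.6 and 43.9. It was under the filter, and its mean log2 difference of -1.12 became -0.55 with signals under 32 set to 32. AT3G12900, listed with the uptake genes under the name S8H, was dim, at 2.8 and 3.9 in the RNAi groups, and differed by 0 with that floor. The 2 loci measured from the storage list, AT2G30160 and AT1G07030, differed by -0.06 and -0.15 on the log2 scale and lay on either side of the shared array. Neither is a ferritin gene, so these values do not describe iron stores. CCS, the copper chaperone of superoxide dismutase, had 1069.5, 504.7 and 938.0, so it was 2.12-fold lower in RNAi group 2 and 1.14-fold lower in RNAi group 3. Its mean log2 difference of -0.64 (SE 0.57, limma adjusted p = 0.9999) thus came mostly from RNAi group 2, the reverse of the step seen for BHLH101. No listed gene of nicotianamine synthesis, long-distance iron transport or iron-using enzymes was analysed here.

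The metal lists without BHLH101 held 83 loci, of which 18 had a probe set listed to a single gene and 12 of those passed the filter. Of these 12, limma called 0 higher and 0 lower at an adjusted p under 0.05, against 0.0314% of all probe sets called higher and 0% called lower. The 5 higher calls behind that share became 0 with quantile normalisation, signals under 32 set to 32, the offset of 16, no filter, robust eBayes or all 4 columns as separate samples, and 13 without the intensity trend. At an unadjusted limma p under 0.05 there was 1 of the 12, AT1G47400, which was lower. Over all 15922 probe sets past the filter, 48 were lower and 147 higher at that level. At least 2-fold lower in both RNAi groups was 1 of the 12, AT1G47400 (0.364% of all), and at least 1.5-fold lower in both were 2, AT1G47400 and NAI1 (2.04% of all). None of the 12 was at least 1.5-fold higher in both, against 3.64% of all. Simply below the shared array in both RNAi groups were 7 of the 12, and 1 was above it in both, against 23.3% and 30.2% of all probe sets past the filter. The median log2 difference of the 12 was -0.26, at -0.35 in RNAi group 2 and -0.20 in RNAi group 3, against 0.04 over all. The 12 genes share the same 3 arrays and were assembled with BHLH101 in view, so these shares are a description. The 6 genes under the filter had signals of 1.2 to 54.9; 2 were below the shared array in both RNAi groups, 2 above it in both and 2 mixed.

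**Figure D3:**
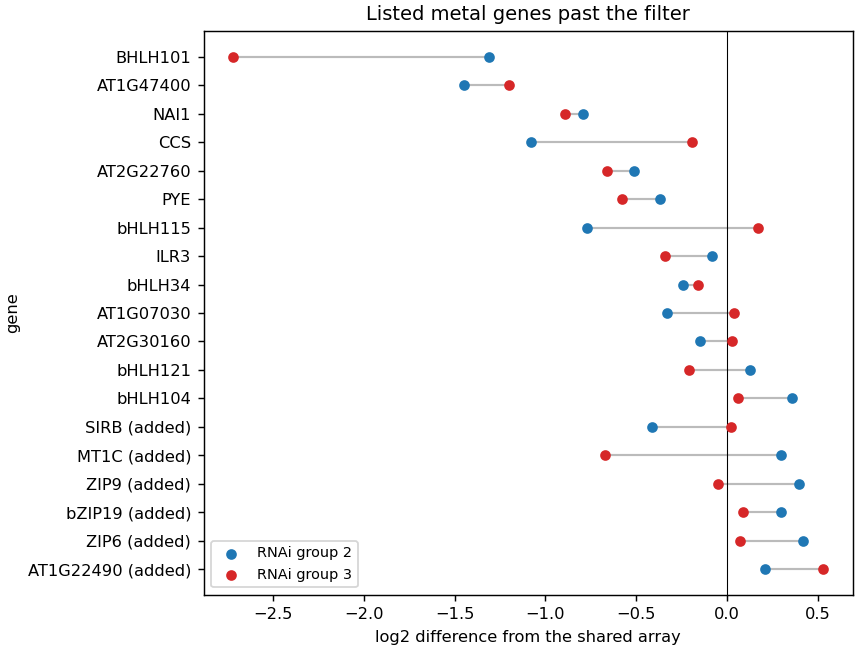
Log2 difference from the shared array in RNAi group 2 (blue) and RNAi group 3 (red) for BHLH101, the 12 listed metal genes past the filter and 6 further genes with bHLH or metal names added after the values were seen; a grey line joins the 2 arrays of a gene. BHLH101 has the lowest value, -2.72, and the longest line, and the added genes lie between -0.67 and 0.53.

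A further 7 genes were taken from the reference table by bHLH or metal names after the values had been seen. Their metal members include the zinc deficiency factor bZIP19, the transporters ZIP6, ZIP9 and NRAMP5, the metallothionein MT1C and SIRB, which inserts iron in the making of sirohaem. bZIP19 had signals of 415.7, 512.0 and 443.7, and ZIP6 had 111.0, 148.2 and 116.8. MT1C had 3098.1, 3807.2 and 1952.4, and SIRB had 791.3, 594.1 and 799.9. Of the 6 past the filter none was below the shared array in both RNAi groups, 3 were above it in both and 3 were mixed, against 23.3% below and 30.2% above among all past the filter, with mean log2 differences of -0.20 to 0.37. NRAMP5 was dim on every array, at 1.6 to 5.6.

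The genes whose pattern lay closest to that of BHLH101 were found by the distance between log2 differences of RNAi groups 2 and 3 from the shared array, over 8632 other named probe sets past the filter and 3 arrays. AT1G72920 was nearest, at a distance of 0.28, with signals of 264.9, 117.0 and 33.8. AT5G51390 followed at 0.47, with 160.1, 84.0 and 29.5, and AT5G12050 at 0.51, with 810.1, 423.1 and 96.4. All 3 stepped down from the shared array to RNAi group 2 and again to RNAi group 3, as BHLH101 did. AT3G06070, AT5G39670, AT2G22200, AT2G40435 and AT4G21870 completed the 8, at distances of 0.79 to 0.88. No gene of the metal lists was among them. With 3 arrays such a pattern has 2 free values, and being close in it says nothing of shared control.

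The genes next to BHLH101 on chromosome 5 that had a clear signal stayed within 1.33-fold of the shared array. Among the 5 protein-coding genes on each side, 4 had a probe set listed to a single gene. AT5G04160, the adjacent gene, had signals of 371.7, 280.0 and 436.3, and AT5G04170 had 631.4, 807.4 and 659.3. GYRB3 had 252.7, 298.7 and 310.2, slightly above the shared array in both RNAi groups. AT5G04120 was dim, at 0.8 to 4.0.

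Markers of the mixed organs were unevenly covered. The 2 leaf markers measured, RCA and LHCB4.1, summed to signals of 41771, 35416.6 and 42549.4. AMS, the only 1 of 6 listed flower markers measured, had 199.1, 150.5 and 188.7. That 1 gene does not give the share of flowers in a sample. All 6 listed pollen genes were above the shared array in both RNAi groups (30.2% of all probe sets past the filter were), with sums of 70.9, 2906.9 and 1311.3 and signals of 1.9 to 31.6 on the shared array; that list was chosen with this difference known. The 3 root markers measured summed to 46.7, 51.4 and 75.9, and 2 of them, EXPA7 and EXPA18, were under 32 on every array. The pollen sums were thus higher in both RNAi groups than on the shared array, the opposite direction to BHLH101. They were also higher in RNAi group 2 than in RNAi group 3. Their part in the BHLH101 difference was not tested.

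Other ways of processing left the direction of the BHLH101 difference in place. BHLH101 was chosen for that direction, so the kept sign is a description and adds no support. An offset of 16 added before the log brought its mean log2 difference to -1.73, and the fit that treats all 4 columns as separate samples, which counts the shared array in both groups, to -1.34. For AT1G47400 that fit gave -0.88. BHLH101 has no value under the 50th percentile filter, which it does not pass.

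**Figure D4:**
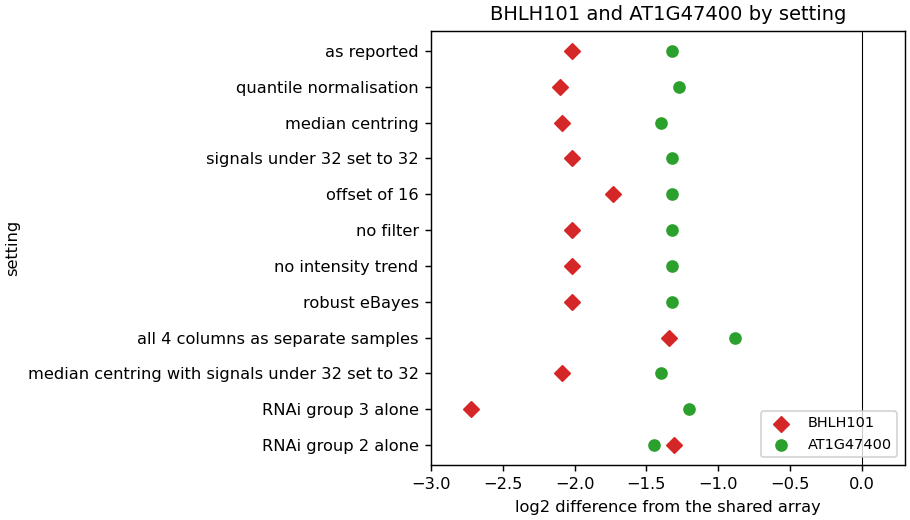
Mean log2 difference of BHLH101 (diamonds) and AT1G47400 (circles) from the shared array under each way of processing that kept both genes. Every point lies below 0, the side for which BHLH101 was chosen. BHLH101 ranges from -2.72 to -1.31 and AT1G47400 from -1.45 to -0.88.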

How the data were processed

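The deposited intensity of each probe set, on a linear scale, was made, per the submitters' processing notes, with GCOS and MAS5, with no version stated. The authors had brought all columns to 1 level (2% trimmed means of 500.05 to 500.06), so they were not rescaled. Control probe sets (64) were left out. Of 13513 probe sets listed to 1 gene by the platform annotation, 13436 matched the TAIR10.1 reference table by gene identifier. Start positions in that table were used only to order protein-coding genes along a chromosome. Of several probe sets of a gene, the one with the highest mean signal was taken.

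Signals were put on the log2 scale, and probe sets with a mean above the 30th percentile (signal 39.6) were kept, 15922 in all. RNAi groups 2 and 3 were compared with the shared array by limma 3.58.1 in R 4.3.3 (lmFit, eBayes with an intensity trend, 2-sided, Benjamini-Hochberg, threshold 0.05), with 1 residual degree of freedom; the shared array is assumed to vary like the others, and with 7.45 prior degrees of freedom the moderated SEs and p-values rest mostly on the spread pooled across probe sets, less on the gap between the 2 RNAi arrays of a gene. Genes under the filter took their SE from a fit without it. Precision is limited by the number of arrays. The procedure was tested on simulated data.

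The members and gene lists were chosen with earlier results of these data known. The named genes are BHLH101, the listed metal genes, the 8 genes nearest to BHLH101, and genes added after the values were seen, as stated there. Alternatives were other normalisations, floors, offsets, filters, variance models, a fit of all 4 columns, and leaving out each RNAi group.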

Additional observations from a re-analysis of the deposited data

How the results depend on the processing

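The mean log2 difference of BHLH101 stayed negative in every setting run: -2.10 with quantile normalisation, -2.09 with median centring (alone or with signals under 32 set to 32, a combination added after the data were seen), -1.73 with an offset of 16 and -1.34 with all 4 columns as separate samples, a fit that counts the shared array in both groups. Leaving out an RNAi group gave -2.72 to -1.31, with no residual degrees of freedom and so no test. These are the differences of the single RNAi groups for which BHLH101 was chosen, so the kept sign adds no support. BHLH101 does not pass the 50th percentile filter, so that setting gives it no value. The count of listed genes past limma's test was 0 in all settings with a test. Over all probe sets, these settings called 0 lower each and 0 to 13 higher. The count at least 2-fold lower in both RNAi groups (1 gene, AT1G47400) became 2 without a filter, where the dim AT3G12900 enters, and ran from 1 to 2 when an RNAi group was left out (CCS enters with RNAi group 2 alone). The count at least 2-fold higher was 0 throughout.

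Of 157 values of the 18 listed genes under the other settings, 4 changed sign: AT1G18910 was -0.15 with quantile normalisation and -0.01 with median centring, with or without the floor, and AT2G22750 was 0.20 with the offset. Both are dim, and the cause was not tested. Another 11 values, all of genes under the filter, moved by more than the spread between the RNAi arrays: with signals under 32 set to 32, AT4G37850 went from 1.19, AT1G74770 from 0.58 and AT3G12900 from -1.73 to 0, and with the offset they were 0.48, 0.34 and -0.48. AT4G37850 and AT1G74770 are the 2 dim genes above the shared array in both RNAi groups. With an RNAi group left out, 6 of 36 changed sign: AT1G18910 (-0.08 to 0.22), bHLH115 (-0.77 to 0.17), bHLH121 (-0.21 to 0.13), AT2G22750 (-2.54 to 1.82), AT2G30160 (-0.15 to 0.03) and AT1G07030 (-0.33 to 0.04). A second probe set of AT1G74770 was dim on all arrays (0.7 to 1.0). No paired analysis was possible because no plant group number pairs the control with an RNAi group. Signals under 32 make up 24.9% to 27.6% of an array and limit the folds of dim genes.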
